A study of Mus musculus with 6 samples.

Results

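Autophagy is the route by which a cell wraps its own cytoplasm in a double membrane and delivers it to lysosomes. The genes described here are 36 members of its core machinery and cargo receptors, chosen by symbol from the 24421 genes of a table of deposited counts. All 36 had a row, and all 36 passed the filter on low counts. The libraries are RNA-seq of group 2 innate lymphoid cells (ILC2), lymphocytes of tissues that carry no antigen receptor and release type 2 cytokines. The aged group came from C57BL/6 mice aged 20 to 22 months (3 libraries) and the young group from C57BL/6 mice aged 2 to 3 months (3 libraries). In both groups the cells were sorted from brain by ILC2 surface markers and grown for 2 weeks in medium with 20% fetal calf serum, IL7, IL2, IL33 and SCF, so both groups describe expanded cultures and not cells fresh from tissue. Nothing in the labels ties a library to an animal or culture of its own, so each p reflects the spread among these libraries, part or all of which may be technical.

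The pathway runs in steps. Under starvation or stress the ULK kinase complex is switched on and recruits the class III phosphatidylinositol 3-kinase (PI3K) complex built on Beclin 1, which marks a membrane site with the lipid PI3P. Atg9 vesicles, Atg2 lipid channels and the PI3P readers of the WIPI family then extend a cup-shaped phagophore. A set of ubiquitin-like enzymes attaches the ATG8 proteins (the LC3 and GABARAP families) to that membrane, and cargo receptors bind ATG8 proteins to bring in what is to be degraded. Autophagy is known from mouse genetics to sustain the survival of lymphocytes, including innate lymphoid cells. Much of its control acts on the proteins themselves, so transcript levels do not measure autophagic flux.

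Library totals were 17314428 to 17796301 counts in aged and 16477157 to 20804291 counts in young libraries. Of 11805 genes tested, 19.4% differed between the groups at an adjusted p under 0.05, with 11.2% higher and 8.14% lower in aged libraries, in edgeR's quasi-likelihood test on counts scaled by trimmed mean of M values (TMM), reported below as CPM, the scaled counts relative to library size. The median log2 change (aged minus young) of all tested genes was -0.10 on that scaling, -0.52 with library totals as the only scaling, and 0.06 after an offset for transcript length and GC content. Of 12 ILC2 markers, 11 had counts in all 6 libraries, and Kit was at 0 in aged and 0.47 to 5.55 CPM in young libraries. Gata3 was at 166.6 to 214.6 CPM in aged and 351.3 to 447.6 CPM in young libraries, and Il1rl1 at 247.3 to 332.4 CPM in aged and 441.8 to 527.2 CPM in young libraries. Id2 was at 6389 to 6752 CPM in aged and 3162 to 4372 CPM in young libraries, and Thy1 at 133.9 to 154.6 CPM in aged and 50.4 to 82.6 CPM in young libraries. In contrast, the 4 B cell markers and the 4 markers of NK cells and ILC1 had 0 counts. The 7 markers of microglia and macrophages summed to 21.7 to 32.8 CPM in aged and 7.02 to 19.1 CPM in young libraries. In that list P2ry12 was at 10.4 to 19.8 CPM in aged and 0.56 to 5.48 CPM in young libraries. Lyz2 was at 6.3 to 12 CPM in aged libraries and 0 in young libraries. Adgre1 went the other way, at 0 in aged and 1.73 to 4.12 CPM in young libraries. Cx3cr1 and Cd68 overlapped between the groups, and Csf1r and C1qa were at 0. The part of these marker differences in the results below was not tested. In bulk libraries such as these, fewer cells of a type and less RNA per cell cannot be told apart.

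Of the 36 autophagy genes, 3 rose and 1 fell in aged cultures. Those that rose were Gabarap and Gabarapl1, which encode ATG8 proteins, and Atg16l2, which encodes a paralogue of the scaffold of the conjugation enzymes. The gene that fell was Becn1, which encodes Beclin 1. The share called was 11.1% of the members, below the 19.4% of all tested genes, so as a count the members did not stand out from the rest of the transcriptome. DESeq2 called 4 members higher and 1 lower, against 13.9% and 10.4% of its tested genes (24.2% in either direction). In 11 of the 36 (30.6%) the libraries of the groups did not overlap, against 38.2% of all tested genes. Of those, 6 were higher and 5 lower in aged libraries, against 19.3% and 18.8% of all tested genes. The log2 change was below 0 for 23 members (63.9%), against 54.6% of all tested genes.

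The members shared a small and uneven part of the RNA. Together they took 0.203%, 0.201% and 0.191% of the counts in aged libraries 1 to 3, against 0.246%, 0.265% and 0.239% in young libraries 1 to 3. These are shares of unscaled library totals, on which the median log2 change of all tested genes was itself -0.52. The TMM factors, not applied to these shares, were 0.872, 0.840 and 0.885 in aged and 1.164, 1.181 and 1.123 in young libraries. The shares therefore do not show that the members as a whole fell on TMM scaling. Gabarap and the cargo receptor gene Sqstm1 alone held 47.0% to 51.0% of the members' counts in aged and 43.9% to 46.8% in young libraries. Per kilobase of transcript, the highest level was that of Gabarap, at a mean of 604.0 CPM per kb in aged and 418.3 CPM per kb in young libraries. Sqstm1 followed, at 114.9 and 153.9 CPM per kb in aged and young libraries. Wipi1 had the lowest level, at 0.249 and 0.499 CPM per kb in aged and young libraries.

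**Figure D1:**
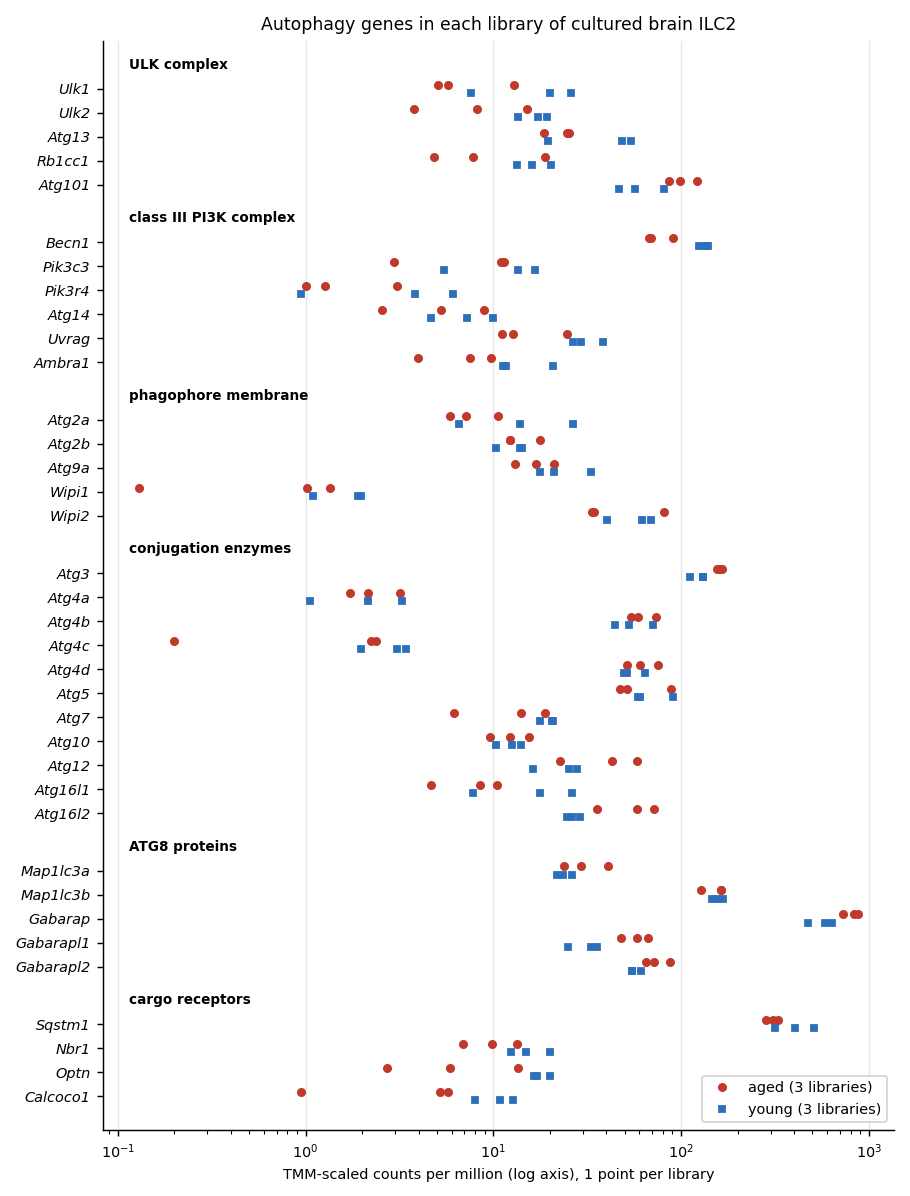
TMM-scaled CPM of each of the 36 genes (rows, grouped by role) on a log axis, with 1 point per library, aged circles above young squares. Becn1 lies lower in the 3 aged libraries, at 67.8 to 90.6 CPM, and Gabarapl1 higher, at 48.0 to 66.3 CPM, while most members overlap between the groups.

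Genes of the ULK kinase complex gave no call. Ulk1 and Ulk2, the kinases that start autophagy, had log2 changes of -1.18 ± 0.57 and -0.89 ± 0.53 (SE). Ulk1 was at 12.9, 5.05 and 5.72 CPM in aged libraries, against 20.1, 26.0 and 7.58 CPM in young libraries. Young library 3 lay among the aged libraries for Ulk1, so the groups overlapped. The same library stood apart for Atg13, which encodes the adaptor that links the kinases to the complex, at 18.6, 25.3 and 24.8 CPM in aged libraries against 48.4, 54.4 and 19.6 CPM in young libraries. Without that library Atg13 passed at a log2 change of -1.14 (adjusted p = 0.0227, edgeR). With any other library left out Atg13 did not pass (adjusted p up to 0.469). Rb1cc1, which encodes the scaffold FIP200, had a log2 change of -0.67 ± 0.53.

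Atg101, which encodes the partner that stabilises Atg13, went the other way from the rest of its complex. It was at 122.2, 99.2 and 86.4 CPM in aged libraries, against 47.0, 80.8 and 56.9 CPM in young libraries. Every aged library lay above every young one, yet the log2 change of 0.74 ± 0.24 narrowly missed the threshold (adjusted p = 0.0538, edgeR). It passed in DESeq2 (0.0161), in limma-voom (0.038), with RLE size factors (0.0446) and without the filter (0.0326). It also passed without young library 2 (0.0241), but not with any other library left out (up to 0.188). With the length and GC offset its log2 change was 0.21.

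Becn1 fell. The gene on chromosome 11 (101285952 to 101302286, GRCm38, minus strand) had 68.9, 67.8 and 90.6 CPM in aged libraries, against 135.3, 124.6 and 138.8 CPM in young libraries. The lowest young library was above the highest aged one. The log2 change was -0.81 ± 0.18 (SE; 95% interval -1.21 to -0.41; adjusted p = 0.0105, edgeR). The call was lost without aged library 2 (log2 change -0.74, adjusted p = 0.0514) or young library 1 (-0.78, 0.0596), and with the length and GC offset (-0.31, 0.231). An opposite-strand gene, Cntd1, covers 43.9% of Becn1's exon bases, and its own row held 298, 219 and 384 counts in aged libraries against 634, 773 and 733 counts in young libraries. Whether reads were shared between the pair was not tested.

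The other members of the PI3K complex had log2 changes below 0 and none passed. Uvrag, which encodes the Beclin 1 partner of the endosomal form of the complex, was at 11.1, 12.7 and 24.7 CPM in aged libraries, against 26.7, 38.2 and 29.3 CPM in young libraries (log2 change -0.96 ± 0.38, adjusted p = 0.104). Without aged library 3, the closest to the young group, Uvrag passed (adjusted p = 0.0283, edgeR). With any other library left out Uvrag did not pass (adjusted p up to 0.312). Ambra1, which encodes a regulator that binds Beclin 1, also had groups without overlap, at 3.98 to 9.66 CPM in aged and 11.3 to 20.8 CPM in young libraries. The lipid kinase gene Pik3c3, its regulatory partner Pik3r4 and Atg14, which encodes the Beclin 1 partner specific to autophagy, were low and scattered, with log2 changes of -0.49 ± 0.63, -1.02 ± 1.06 and -0.38 ± 0.68.

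Phagophore genes were not separated by age. Atg2a, a lipid channel gene, was at 5.90 to 10.6 CPM in aged and 6.58 to 26.7 CPM in young libraries, and its paralogue Atg2b had a log2 change of 0.13 ± 0.41. Atg9a, which encodes the scramblase of the seed vesicles, had a log2 change of -0.49 ± 0.37, with 32.6% of its exon bases overlapped by other genes and 43.6% of its possible 75-base reads found in another transcript. Wipi2, the PI3P reader that recruits the conjugation enzymes, was at 34.3, 80.9 and 33.7 CPM in aged libraries, against 62.3, 68.9 and 40.1 CPM in young libraries. Aged library 2 was the highest of the 6. Wipi1 was near the limit of detection, with 2 counts in aged library 1.

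Of the 5 ATG8 genes, 2 rose and 0 fell, beside 11.2% and 8.14% of all tested genes. Gabarap was at 881.1, 834.4 and 732.3 CPM in aged libraries, against 587.2, 473.2 and 635.0 CPM in young libraries, a log2 change of 0.53 ± 0.14 (SE; 95% interval 0.21 to 0.85; adjusted p = 0.0246, edgeR). Gabarapl1 was at 57.9, 66.3 and 48.0 CPM in aged libraries, against 25.0, 35.6 and 33.1 CPM in young libraries, a log2 change of 0.88 ± 0.25 (95% interval 0.32 to 1.43; adjusted p = 0.0312). Both genes had groups without overlap. Exons of Gabarapl1 overlap the opposite-strand gene 1700101I11Rik over 28.3% of their length, and that gene's row held only 46, 60 and 51 counts in aged libraries and 32, 55 and 21 counts in young libraries.

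The remaining ATG8 genes did not pass. Gabarapl2 was at 65.2, 71.8 and 87.8 CPM in aged libraries, against 54.9, 54.9 and 60.9 CPM in young libraries, without overlap but with an adjusted p of 0.211 (log2 change 0.40 ± 0.20). Predicted genes share 13.3% of its possible 75-base reads. Map1lc3b, the LC3 gene used most widely as a marker of autophagosomes, was at 128.5, 162.6 and 163.6 CPM in aged libraries, against 146.5, 168.2 and 155.0 CPM in young libraries. The groups overlapped, and the 95% interval of its log2 change ran from -0.41 to 0.31. Map1lc3a was at 29.4, 40.7 and 23.8 CPM in aged libraries, against 21.8, 26.3 and 23.5 CPM in young libraries, with a log2 change of 0.39 ± 0.30.

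The calls of both GABARAP genes depended on scaling and on single libraries. With library totals as the only scaling the log2 changes were 0.11 for Gabarap and 0.46 for Gabarapl1 and neither passed (adjusted p = 0.559 and 0.206). With the length and GC offset Gabarapl1 kept its call at 0.76 (adjusted p = 0.0498) and Gabarap lost it at 0.26 (0.219). Gabarap lost its call without aged library 1 (0.0928), aged library 2 (0.0838), young library 1 (0.088) or young library 2 (0.0747). Gabarapl1 lost it without aged library 1 (0.0727), aged library 2 (0.117), young library 1 (0.129) or young library 2 (0.0505).

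Within a library, a ratio between paralogues does not depend on the scaling of that library, but it can carry differences in length and GC content. Gabarap over Map1lc3b had log2 ratios of 2.78, 2.36 and 2.16 in aged libraries, against 2.00, 1.49 and 2.03 in young libraries. The aged libraries lay above the young ones (difference 0.59). Its exact permutation p, two-sided, was 0.1, and no smaller value can be had with 3 libraries a side; adjusted over 9 paralogue pairs it was 0.3. With the length and GC offset the log2 changes of Gabarap and Map1lc3b lay closer together, at 0.26 and 0.09. Counted per kilobase, Gabarap made up 81.7%, 77.7% and 77.0% of the ATG8 transcripts in aged libraries, against 78.1%, 71.5% and 77.8% in young libraries. These shares overlapped. Map1lc3b made up 6.11% to 8.82% in aged and 9.74% to 13.0% in young libraries, without overlap. Gabarapl1 over Gabarap did not separate the groups (difference 0.35, exact permutation p = 0.3).

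Atg16l2 rose, and it was the member that the offset for length and GC moved furthest upward among those called. The gene on chromosome 7 (101263034 to 101302251, GRCm38, minus strand) was at 58.1, 71.8 and 35.5 CPM in aged libraries, against 24.7, 29.0 and 26.1 CPM in young libraries. The aged libraries were all higher, and aged library 3 was the closest to the young group. The log2 change was 1.05 ± 0.29 (SE; 95% interval 0.41 to 1.69; adjusted p = 0.0274, edgeR) and 1.82 ± 0.30 with the length and GC offset (adjusted p = 0.00176). With library totals it was 0.62 and did not pass (adjusted p = 0.138). The call was lost without aged library 1 (0.0722), aged library 2 (0.124), young library 1 (0.0973), young library 2 (0.0586) or young library 3 (0.0578).

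Its paralogue Atg16l1, which encodes the scaffold that places the conjugation complex on the membrane, did not pass, at 10.4, 4.65 and 8.45 CPM in aged libraries against 7.78, 17.7 and 26.2 CPM in young libraries (log2 change -1.13 ± 0.55, adjusted p = 0.183). Per kilobase, Atg16l2 made up 73.0%, 88.2% and 67.1% of the pair in aged libraries, against 60.7%, 44.2% and 32.6% in young libraries. The groups did not overlap, and the log2 ratio of Atg16l2 over Atg16l1 was 2.83 ± 0.98 in aged and 0.79 ± 0.84 in young libraries (SD, n = 3 each), with an exact permutation p of 0.1, or 0.3 adjusted over the 9 pairs. The ratio of Atg2b over Atg2a also separated the groups, at 0.86 ± 0.16 in aged and -0.08 ± 0.80 in young libraries (exact permutation p = 0.1, 0.3 adjusted).

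**Figure D2:**
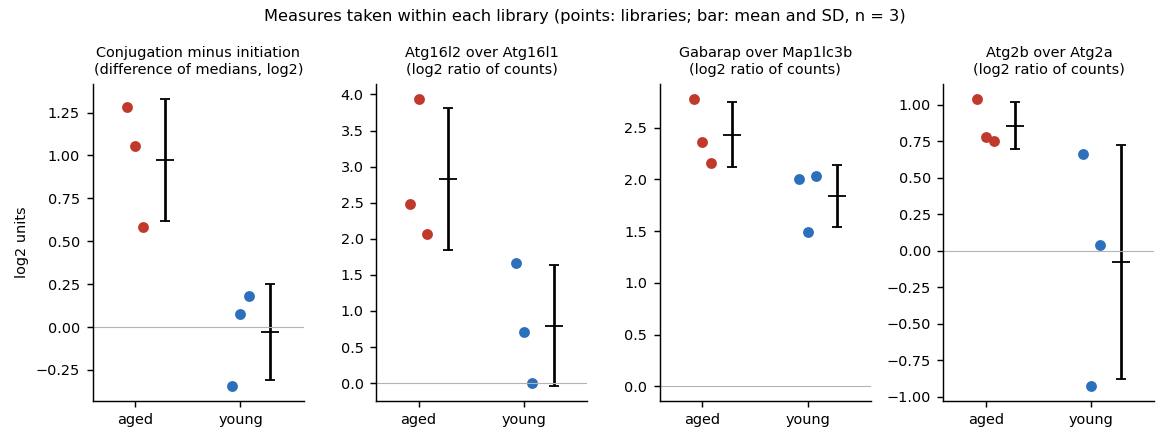
Log2 measures taken inside each library: the conjugation minus initiation difference of medians and 3 ratios between paralogues. Points are libraries, aged left of young, and bars give the mean and SD (n = 3); the Atg16l2 over Atg16l1 ratio spans 2.07 to 3.94 in aged and 0.00 to 1.67 in young libraries.

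The other conjugation enzyme genes did not pass. Atg3, which encodes the enzyme that hands ATG8 proteins to lipid, was at 164.4, 158.4 and 155.1 CPM in aged libraries, against 130.6, 111.3 and 130.1 CPM in young libraries. Its groups did not overlap, but the log2 change of 0.36 ± 0.16 had an adjusted p of 0.139. Atg12, which encodes the ubiquitin-like protein joined to Atg5, had a log2 change of 0.83 ± 0.37, and with the length and GC offset 1.36 (adjusted p = 0.0352). Atg4d, which encodes a protease that trims ATG8 proteins, had a log2 change of 0.18 ± 0.23 and passed at 0.75 with that offset (adjusted p = 0.0301). Exons of Kri1, on the opposite strand, cover 19.3% of Atg4d's exon bases. With a block on replicate number added to the offset, neither Atg12 nor Atg4d passed (adjusted p = 0.0712 and 0.0666, edgeR). Without aged library 3, Atg12 passed too (adjusted p = 0.0445, edgeR), but not with any other library left out (adjusted p up to 0.462).

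Atg5 and Atg7, which are required for conjugation, had log2 changes of -0.16 ± 0.28 and -0.59 ± 0.45. For Atg10, which encodes the enzyme that transfers Atg12, the log2 change was 0.02 ± 0.43. Among the other ATG8 proteases, Atg4b had a log2 change of 0.15 ± 0.24. Atg4a and Atg4c had few reads, at 1.06 to 3.26 CPM and 0.20 to 3.42 CPM over the 6 libraries, and 52.0% of Atg4a's possible 75-base reads occur in transcripts of other genes.

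Cargo receptor genes had log2 changes below 0 in 4 of 4 cases and none passed. Sqstm1 encodes p62, a receptor for ubiquitinated cargo that is itself degraded by autophagy. It was at 309.2, 328.4 and 283.5 CPM in aged libraries, against 404.6, 512.7 and 317.1 CPM in young libraries, a log2 change of -0.42 ± 0.18 (adjusted p = 0.123). The groups overlapped through young library 3, and without it Sqstm1 passed (adjusted p = 0.0293, edgeR). It did not pass with any other library left out (adjusted p up to 0.442). Exons of Mrnip, on the opposite strand, cover 17.3% of its exon bases.

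Optn encodes a receptor for damaged mitochondria and bacteria. It was at 5.90, 13.6 and 2.73 CPM in aged libraries, against 16.6, 17.1 and 20.0 CPM in young libraries, without overlap (log2 change -1.27 ± 0.57, adjusted p = 0.152). Optn passed with library totals, and without aged library 2 (adjusted p = 0.0378, edgeR). With any other library left out it did not pass (adjusted p up to 0.286). Calcoco1, a receptor gene for endoplasmic reticulum, was at 5.77, 5.19 and 0.95 CPM in aged libraries, against 10.9, 12.7 and 7.99 CPM in young libraries (log2 change -1.40 ± 0.72, adjusted p = 0.213). Aged library 3 was the lowest for both. Nbr1, which encodes a partner of p62, had a log2 change of -0.65 ± 0.45.

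**Figure D3:**
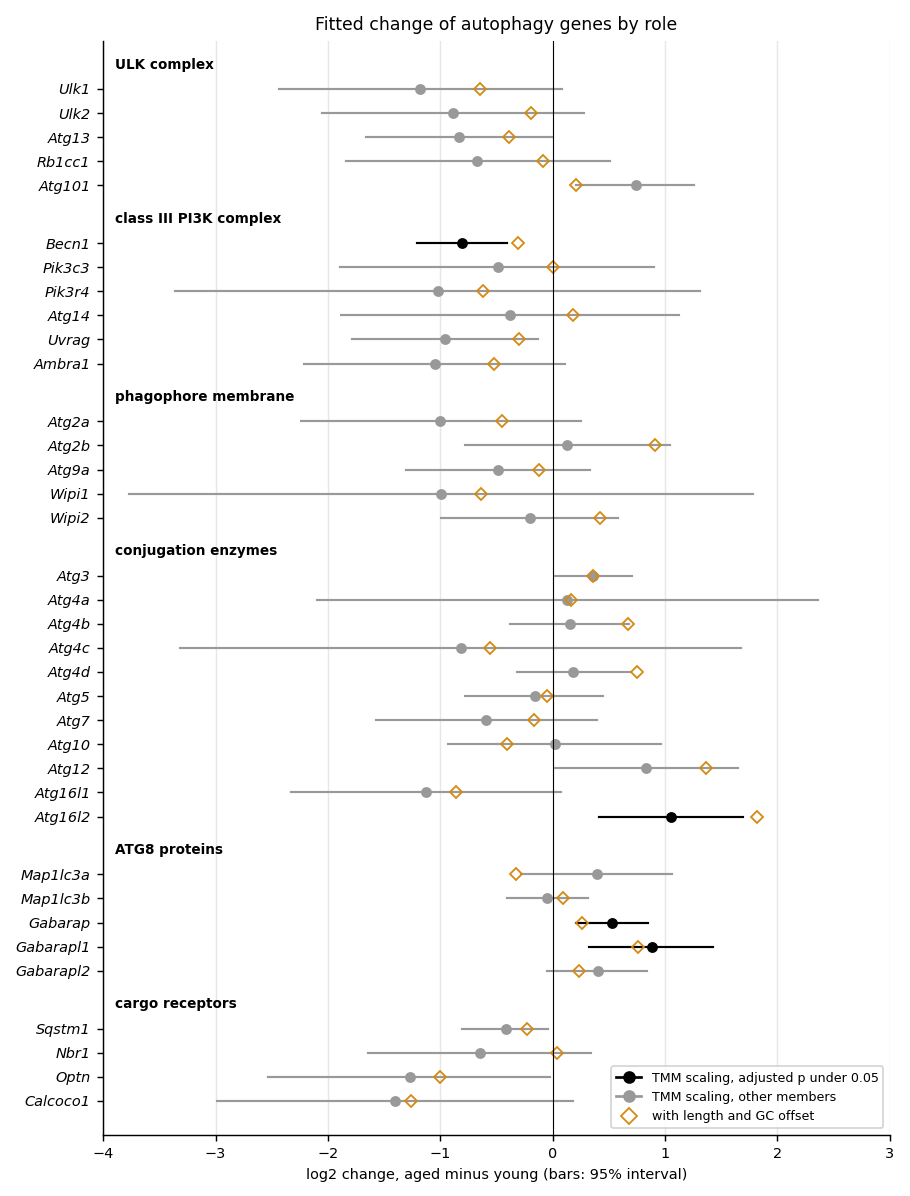
Fitted log2 change (aged minus young) of each member with its 95% interval on TMM scaling, black where the adjusted p was under 0.05, and the estimate with the length and GC offset as open diamonds. The initiation genes lie left of 0 except Atg101, and the offset moves the initiation median to -0.30; with library totals as the scaling the conjugation median lies at -0.25.

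The median log2 change of the initiation genes was below that of the conjugation genes with TMM, with library totals and with the length and GC offset, and the gap was narrowest with the offset. Among initiation genes 0 were called higher and 1 lower, and among conjugation genes 3 were called higher and 0 lower. Over all tested genes 11.2% were called higher and 8.14% lower, so counts this small do not set either role apart. The 11 genes of the ULK and PI3K complexes had a median log2 change of -0.83, with 10 of 11 below 0, and the 16 conjugation and ATG8 genes a median of 0.17, with 11 of 16 above 0. With library totals as the scaling, the medians were -1.26 and -0.25, so the sign of the conjugation median turned. Set against the median of all tested genes, the initiation median was -0.73 with TMM and -0.74 with library totals, and the conjugation median was 0.27 with both. The median of the 4 cargo receptor genes was -0.96, or -0.86 relative to all tested genes.

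The same counts, taken library by library on TMM scaling without the length and GC offset, held the same split. This is another view of the medians above and not separate support for them. The conjugation median minus the initiation median of log2(CPM + 1), centred on the young mean, was 1.28, 1.05 and 0.58 in aged libraries, against -0.35, 0.08 and 0.18 in young libraries. The groups did not overlap. Members of a role are not replicates, so no test was made of this difference.

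Transcript length differed between the roles and moved with the result. Of the 11 initiation genes, 9 lay in the 2 longest of 5 equal length classes of the tested genes and 1 in the 2 shortest, whereas of the 16 conjugation and ATG8 genes 5 lay in the 2 longest and 8 in the 2 shortest. The exception among the initiation genes, Atg101, has the second shortest longest-transcript of the members, at 1270 bases. Over all tested genes the median log2 change was 0.51 in the shortest class and -0.50 in the longest. Across the 36 members, which share the same 6 libraries, the Spearman correlation of log2 change with length was -0.313, and across 11699 tested genes it was -0.366.

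With the offset for length and GC, the initiation median was -0.30 and the conjugation median 0.20, a gap of 0.49. Relative to all tested genes, these medians were -0.36 for initiation and 0.13 for conjugation genes, both closer to 0 than on TMM scaling. The cargo receptor median was -0.62, or -0.68 relative to all tested genes, and Nbr1 turned to 0.04. The members called were then Atg12, Gabarapl1, Atg16l2 and Atg4d, which were higher, and 0 were lower, against 10.7% of tested genes higher and 5.53% lower. With library totals 0 members were higher and 5 were lower (Sqstm1, Becn1, Optn, Atg13 and Uvrag), against 6.07% and 20.2% of tested genes.

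**Figure D4:**
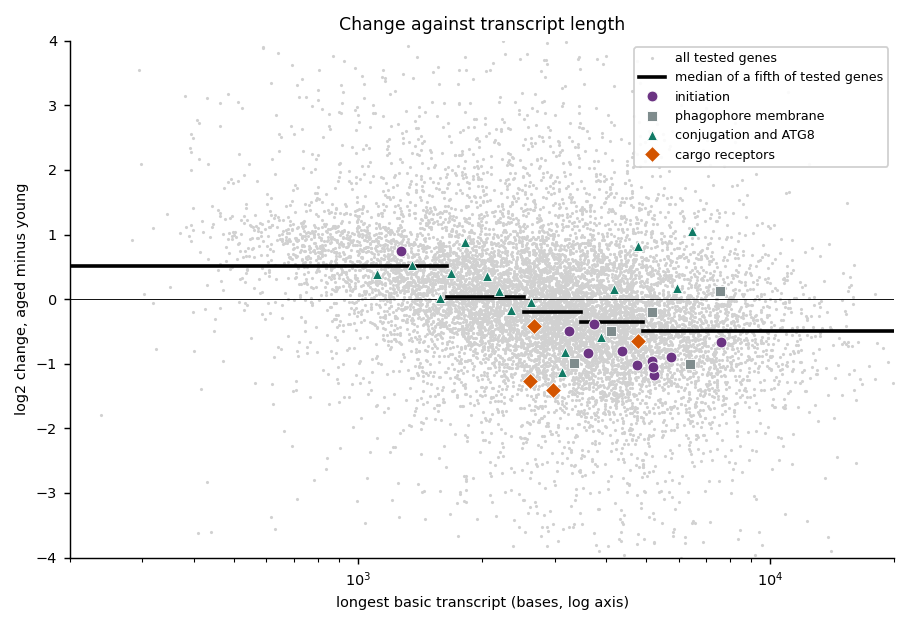
Log2 change (aged minus young) against the length of the longest transcript on a log axis, with all tested genes in grey, medians of the 5 length classes as black lines and members coloured by role; genes outside the axes are not drawn. The class medians step from 0.51 to -0.50, initiation genes cluster among long transcripts, and Atg16l2 stands at 1.05 among the longest class; with library totals as the scaling the conjugation genes shift to a median of -0.25.

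Promoter sequence was available for 30 of the 36 members, in 33 promoters of RefSeq genes (GRCm38.p6). The 250 bases before the start site were searched on both strands. They are shown for the 3 genes that rose, with the GC box core GGGCGG (or its reverse complement) in capitals.
Gabarap, chr11:69991120-69991369, plus strand: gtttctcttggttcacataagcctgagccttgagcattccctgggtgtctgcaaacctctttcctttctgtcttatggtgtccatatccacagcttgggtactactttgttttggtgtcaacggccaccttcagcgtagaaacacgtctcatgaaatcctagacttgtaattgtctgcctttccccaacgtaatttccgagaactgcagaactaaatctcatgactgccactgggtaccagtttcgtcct
Gabarapl1, chr6:129532942-129533191, plus strand: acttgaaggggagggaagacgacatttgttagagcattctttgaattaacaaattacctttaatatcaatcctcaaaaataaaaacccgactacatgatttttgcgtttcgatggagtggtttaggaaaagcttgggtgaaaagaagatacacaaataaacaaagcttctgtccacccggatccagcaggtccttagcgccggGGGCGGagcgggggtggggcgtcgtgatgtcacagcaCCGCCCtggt
Atg16l2, chr7:101302089-101302338, minus strand: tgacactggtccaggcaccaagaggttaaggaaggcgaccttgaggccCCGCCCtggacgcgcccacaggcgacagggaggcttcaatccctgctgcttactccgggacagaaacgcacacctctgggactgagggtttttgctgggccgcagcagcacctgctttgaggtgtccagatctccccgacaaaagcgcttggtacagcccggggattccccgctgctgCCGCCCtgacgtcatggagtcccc
The 3 promoters differ in composition, with a GC content of 46.4% for Gabarap, 46.8% for Gabarapl1 and 63.2% for Atg16l2, against a median of 52.4% over all promoters. Gabarap's window holds no GC box core, and the others hold 2 each. The start sites used are those of RefSeq. In GENCODE vM21 the genes start at base 69991143 (Gabarap), 129533160 (Gabarapl1) and 101302251 (Atg16l2, minus strand). By that annotation each window lies partly inside its gene, and mostly so for Gabarap and Atg16l2. A GC box core was present in 20 of the 33 member promoters and in 32.7% of all 32851 promoters. That background was not limited to genes detected in these libraries, whereas every member was detected, so the sets are unlike.

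The E-box core CACGTG, the centre of the element read by TFEB, a master regulator of autophagy and lysosome genes, was found in 3 member promoters and in 6.02% of all promoters. The 3 belong to conjugation enzyme genes, none of which passed the test. The Atg7 window precedes a RefSeq start site inside the gene, which in GENCODE vM21 starts at base 114643097 of chromosome 6. For each gene, 60 bases around the core are given with the core in capitals.
Atg3, chr16:45158719-45158778, plus strand: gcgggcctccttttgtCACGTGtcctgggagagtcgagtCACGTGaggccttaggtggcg
Atg5, chr10:44268279-44268338, plus strand: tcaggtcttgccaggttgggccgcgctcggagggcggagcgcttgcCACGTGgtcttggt
Atg7, chr6:114670937-114670996, plus strand: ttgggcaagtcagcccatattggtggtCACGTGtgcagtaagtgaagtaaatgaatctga
The full CLEAR element, which contains the E-box core, the ATF4 and C/EBP element TGATGNAAT and the FOXO element GTAAACA were found in 0 member promoters, and in 0.24%, 0.816% and 3.17% of all promoters.

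Regulators and partners of the pathway moved both ways. Of 80 tested genes of 5 lists of regulators and partners, 10 rose and 8 fell, beside the 11.2% and 8.14% of all tested genes. As a count they did not stand out from the rest of the transcriptome. Among transcriptional regulators, 3 of 9 tested genes rose and 1 fell. Atf4, which encodes an activator of autophagy genes under amino acid stress, was at 559.0, 664.2 and 695.5 CPM in aged libraries, against 302.1, 297.7 and 338.0 CPM in young libraries (log2 change 1.03 ± 0.14). Cebpb and Ddit3, whose proteins act in the same stress response, rose by 1.24 ± 0.17 and 0.91 ± 0.24.

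Foxo1, which encodes a factor that activates autophagy genes when growth signals are low, was at 7.56, 10.9 and 10.3 CPM in aged libraries, against 22.3, 38.6 and 25.4 CPM in young libraries, and fell by 1.59 ± 0.38 on the log2 scale. The TFEB family genes Tfeb, Tfe3 and Mitf did not pass, with log2 changes of -0.46 ± 0.60, -0.99 ± 0.63 and -0.62 ± 1.07. The calls of Ddit3 and Foxo1 were lost with the length and GC offset (0.22 and -0.72), and that of Ddit3 with library totals (0.49).

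Genes of mTORC1, AMPK and nutrient sensing moved both ways, with 6 higher and 4 lower of 28 tested, beside 11.2% and 8.14% of all tested genes. mTORC1 is the kinase that holds the ULK complex inactive when amino acids are plentiful, and the Ragulator complex anchors it to lysosomes. Of Ragulator, Lamtor4 and Lamtor2 rose by 1.13 ± 0.16 and 0.91 ± 0.18 on the log2 scale, as did Lamtor5 and Lamtor1. Lamtor3 did not pass, with a log2 change of -0.16 ± 0.21, and Lamtor1 lost its call with library totals (0.19, adjusted p = 0.375). Lamtor5 was at 317.5, 334.6 and 285.1 CPM in aged libraries, against 136.6, 122.7 and 177.1 CPM in young libraries. With the length and GC offset, Lamtor5 kept its call at 0.62 (adjusted p = 0.00919), while Lamtor4 (0.43), Lamtor2 (0.08) and Lamtor1 (0.02) lost theirs. These transcripts have 668 to 1119 bases.

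Sesn2, which encodes a leucine sensor that restrains mTORC1, fell by 1.73 ± 0.29 on the log2 scale. The other genes called were named after their values were seen. Rraga and Ddit4 rose, and Flcn, Sesn1 and Tsc1 fell. Rraga lost its call with library totals (0.35, adjusted p = 0.272) and kept it in 2 of the 6 fits that left out 1 library, and Sesn1 lost its call with the length and GC offset (-0.76, adjusted p = 0.14). Tsc1, which encodes a subunit of the main brake on mTORC1, was at 0, 0 and 0.89 CPM in aged libraries, against 9.08, 16.95 and 8.60 CPM in young libraries. With aged values at or near 0, its log2 change of -5.24 ± 1.33 was loosely fixed. The call was kept with library totals and with the length and GC offset, and in 4 of the 6 fits that left out 1 library. Flcn, which encodes an activator of Rag GTPases, fell by 1.93 ± 0.37 and kept its call with library totals (-2.33) and with the length and GC offset (-1.67).

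Among 12 tested genes of other selective receptors, 2 fell and 0 rose, beside 8.14% and 11.2% of all tested genes. Tax1bp1, which encodes a receptor that works with p62 and Nbr1, was at 267.2, 222.6 and 270.7 CPM in aged libraries, against 592.5, 457.8 and 630.0 CPM in young libraries. Its log2 change was -1.14 ± 0.16 (adjusted p = 0.000591, edgeR), -1.56 with library totals and -0.90 with the length and GC offset, and it passed with any 1 library left out. Retreg1, listed under its older symbol Fam134b, encodes a receptor that fragments endoplasmic reticulum for autophagy. It was at 21.2, 9.77 and 3.69 CPM in aged libraries, against 67.0, 51.5 and 52.3 CPM in young libraries, a log2 change of -2.30 ± 0.51.

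Of 15 other genes of autophagosome formation, 0 rose and 1 fell, beside 11.2% and 8.14% of all tested genes. That gene was Trp53inp1, which encodes an ATG8-binding protein induced by p53, with a log2 change of -1.58 ± 0.43. Its call was lost with the length and GC offset (-1.08, adjusted p = 0.12). Of 16 tested genes of fusion with lysosomes, 1 rose and 0 fell, beside the same shares of all tested genes. Vamp8, which encodes the lysosomal SNARE of that fusion, was at 444.3, 444.1 and 422.7 CPM in aged libraries, against 262.2, 234.9 and 311.3 CPM in young libraries (log2 change 0.70 ± 0.14), and did not pass with library totals (0.28, adjusted p = 0.139).

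**Figure D5:**
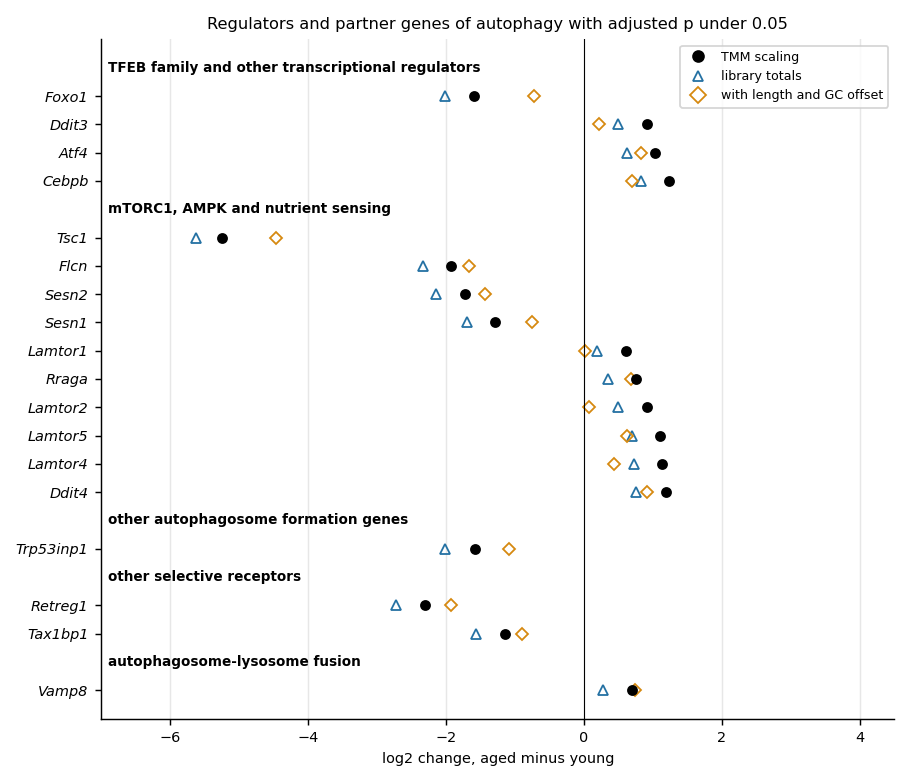
Log2 change (aged minus young) of the 18 regulators and partner genes with an adjusted p under 0.05 on TMM scaling (circles), with the estimates from library totals (triangles) and with the length and GC offset (diamonds). Tax1bp1, Flcn and Sesn2 lie below 0 under each, from -0.90 to -2.33, while Lamtor1 and Lamtor2 lie near 0 with the offset.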

How the data were processed

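The counts are deposited as 1 table of whole numbers, a row per gene symbol and a column per library, not normalized by the authors. Tools named in the submitters' processing notes are STAR 2.5.3a, Cufflinks 2.0, DESeq2 1.1 and build mm10. Counting tool and strand: not given in the sources used here, so reads of overlapping genes cannot be told apart. The members and lists were chosen with earlier results of these data known.

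Counts were tested in R 4.3.3 with edgeR 4.0.16 (filterByExpr, minimum count 10, minimum total 15; TMM; glmQLFit and glmQLFTest), aged against young, with Benjamini-Hochberg adjustment over 11805 genes and a threshold of 0.05. Standard errors are the log2 change divided by the root of F. CPM are TMM-scaled. Ratios added 0.5 counts. Lengths are those of the longest basic transcript in GENCODE vM21 (GRCm38), matched for 98.3% of symbols. Symbols turned into dates (27 rows, 0.153% of counts) were kept in library sizes. The length and GC offset was a spline fit per library. Values per library are given for called members and ATG8 genes by rule, and up to 4 genes per context list by smallest p; other members' library values were chosen after they were seen. No protein sequences were used here.

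On simulated counts with 200 changed genes among 11416, the test recovered 21.1% of 2-fold and 61.5% of 4-fold changes. In the deposited data 19.4% of tested genes were called, a larger share than was changed in the simulation. These rates therefore need not hold for the comparison of aged and young libraries. The 95% intervals of log2 changes come from the edgeR fit and include the spread between libraries. Alternatives were DESeq2 1.42.0, limma-voom (limma 3.58.1), other scalings and filters, robust dispersion, a block on replicate number, the offset, and leaving out each library.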

Additional observations from a re-analysis of the deposited data

How the results depend on the processing

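With library totals as the only scaling, 717 of all tested genes were called higher and 2381 lower (1325 and 961 with TMM), 0 members higher and 5 lower (3 and 1), and 6 and 23 context genes (10 and 8), with medians of -1.26 for initiation and -0.25 for conjugation genes. With the length and GC offset 0 members and 5 context genes were lower, the initiation median was -0.30 and the gap to conjugation genes 0.49. With the replicate block and that offset together, 484 of all genes were lower, 1 member (Atg16l2) was higher and 0 lower, 5 context genes were lower, the initiation median was -0.32 and the gap 0.53. With 1 library left out, 915 to 1344 of all genes were higher and 399 to 849 lower, 0 to 4 members higher and 0 to 3 lower, and 7 to 10 context genes higher and 6 to 10 lower. Over the same fits the initiation median ran from -0.89 to -0.75, the conjugation median from 0.04 to 0.40, the cargo median from -1.28 to -0.66 and the gap from 0.79 to 1.18. In these fits and with library totals, the cause of a lost call was not tested.

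Uncalled members changed sign. With library totals the log2 changes were -0.28 for Atg2b, -0.05 for Atg3, -0.28 for Atg4a, -0.27 for Atg4b, -0.24 for Atg4d, -0.40 for Atg10, -0.03 for Map1lc3a and -0.02 for Gabarapl2. With the length and GC offset they were 0.00 for Pik3c3, 0.18 for Atg14, 0.42 for Wipi2, -0.41 for Atg10, -0.33 for Map1lc3a, 0.09 for Map1lc3b and 0.04 for Nbr1, and with the replicate block as well 0.03 for Atg14, 0.30 for Wipi2, -0.36 for Atg10, -0.34 for Map1lc3a and 0.08 for Map1lc3b. Atg10 was at -0.01 in limma-voom and -0.00 with the replicate block alone. With 1 library left out, the ranges that crossed 0 were -0.07 to 0.24 for Atg2b, -0.75 to 0.01 for Wipi2, -0.19 to 0.58 for Atg4a, -0.50 to 0.09 for Atg5, -0.17 to 0.17 for Atg10 and -0.10 to 0.06 for Map1lc3b.

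The labels do not say that same-numbered libraries share an animal or day, so the numbers were not taken to pair them. Deviations of same-numbered libraries from their group means correlated weakly (0.018, 0.006 and 0.053). With 3 libraries a group, such correlations cannot settle whether the libraries are paired. Not every library correlated best with its own number, and the replicate block alone changed no member's call. Members at a few CPM, such as Wipi1, Atg4a, Atg4c and Pik3r4, had standard errors above 1 on the log2 scale. A 2-fold change was therefore not detectable for them with these libraries. How far low counts or the spread between libraries set these errors was not tested.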
